A study of Mus musculus with 6 samples.

Results

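The genes described here code for subunits of the mitochondrial respiratory chain and of ATP synthase, together with the assembly factors and related genes that share their names. Members were all genes whose annotated symbol starts with *Nduf*, *Uqcr* or *Atp5*, is *Sdha*, *Sdhb*, *Sdhc* or *Sdhd*, or starts with *Cox4* to *Cox8*. This rule found 80 of the 10553 genes that had a probe with 1 gene symbol, and it used no measured difference between the genotypes. Of the 80 genes, 33 code for complex I, 3 for complex II, 7 for complex III, 12 for complex IV and 16 for complex V. The other 9 are no subunits: *Ndufaf1*, *Ndufaf2*, *Ndufaf3*, *Ndufaf4*, *Ndufaf5*, *Ndufaf7* and *Ndufaf8* code for assembly factors of complex I, *Cox7a2l* for a protein that joins complexes III and IV, and *Ndufs5-ps* is annotated as a pseudogene. *Ndufa4*, whose product was first assigned to complex I, was counted with complex IV.

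Complexes I and II take electrons from NADH and from succinate and pass them through ubiquinone to complex III, and cytochrome c carries them on to complex IV, which reduces oxygen. Complexes I, III and IV pump protons across the inner membrane, and complex V, the ATP synthase, makes ATP as the protons flow back. HSCs are known for relying little on this route at rest, and progenitors use it more as they divide and differentiate.

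Gene expression was measured in LSK cells, the Lin-Sca-1+c-Kit+ fraction of mouse bone marrow that holds HSCs and multipotent progenitors, on 6 Illumina bead arrays. The 3 wild-type pools came from C57BL/6 Spi1+/+ MxCre+ mice and the 3 PU.1-deficient pools from C57BL/6 Spi1fl/fl MxCre+ mice, in which the floxed gene of the transcription factor PU.1 is deleted. Mice of both genotypes were 6 to 12 weeks old, carried the MxCre transgene, whose promoter answers to interferon and is not restricted to blood cells, and had been injected 2 times, 3 days apart, with polyIC (5 µg for each g of weight). The methods give day 14 for the isolation, and each pool held cells of 15 to 20 mice.

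The median intensity per array was 89.5 to 116.5, with 15639 to 18174 of 45281 probes detected (detection p-value under 0.05). With 3 arrays per genotype, precision is limited by their number. *Kit*, a surface marker of the LSK gate, was detected in all 6 pools. The probe of *Spi1*, the gene that codes for PU.1, had log2 intensities of 8.54, 8.51 and 8.69 in the wild-type pools and of 6.62, 5.80 and 6.00 in the PU.1-deficient pools (log2 fold change -2.44, adjusted p = 0.00112 from *limma*). Markers of other blood cells differed between the genotypes, in some lists for most genes. Of 16 neutrophil granule markers, all detected in all 6 pools, 12 were higher and 1 was lower in PU.1-deficient LSK cells, and their summed linear intensity was 167361 to 182897 against 36681.9 to 63827.3 in wild-type LSK cells. Of 11 erythroid markers, 10 were lower, with a summed intensity of 1396.43 to 2380.15 against 7830.33 to 15389.3, and all 7 megakaryocyte markers were lower. In other lists fewer genes passed. Of 6 B cell markers, 2 were higher and 1 was lower. Of 8 monocyte and dendritic cell markers, 0 were higher and 3 were lower. Of 8 stem cell surface markers, 1 was higher and 3 were lower. The part of any of these cells in the results below was not tested. The genotypes also differed in *Xist*, an RNA made from the inactive X. Its brightest probe was at 4.48, 4.48 and 5.18 in the wild-type pools and at 9.93, 10.01 and 11.06 in the PU.1-deficient pools, and its 4 probes gave log2 fold changes of 4.01 to 5.62, with adjusted p-values of 0.000411 or less. The sex of the pooled mice and the genotype therefore cannot be told apart in any result below, *Ndufv3* included.

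Transcripts of the respiratory chain were nearly level between the genotypes. Of the 80 members, 1 was higher in PU.1-deficient LSK cells (1.25%, against 6.61% of the 10528 genes tested), and 0 were lower (against 5.59%). The one that passed was *Ndufv3*, an accessory subunit of complex I. The test was *limma* on log2 intensities of 3 pools per genotype, with the false discovery rate controlled at 0.05 over all 22119 tested probes. At an unadjusted p under 0.05, 7 members were higher and 5 were lower, which together is 15% of the members, against 27.1% of all genes. In pools of sorted cells, fewer cells of a type and less RNA per cell cannot be told apart.

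All members but *Uqcrfs1* were detected in all 6 pools. Of these 79 genes, 1 was higher and 0 were lower, where 6.54% and 4.87% of the 8057 genes detected in all 6 pools were. Counted by probe, 2 of the 117 tested member probes were higher and 0 were lower, against 4.89% and 3.91% of all probes. Both were probes of *Ndufv3*.

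The sizes of the differences were small. The median log2 fold change of the members was -0.01, against -0.04 for all genes, and the values ran from -0.63 for *Ndufaf4* to 0.97 for *Ndufv3*. Without the sign, the median difference was 0.149 for the members and 0.291 for all genes on the log2 scale. The members were also brighter, with a median log2 intensity of 11.14 against 7.76 for all genes. Their median standard error was 0.182 against 0.219. The part of brightness in the smaller differences and narrower intervals was not tested. The 95% confidence interval of the log2 fold change lay between -1 and 1, that is within a 2-fold change either way, for 69 of 80 members (86.25%), against 63.2% of all genes. Of the other 11 members, 6 had intervals that reached past a 2-fold change on one side without holding 0: *Ndufv3*, *Ndufb3*, *Ndufb7*, *Atp5k*, *Sdhb* and *Ndufaf4*, of which *Ndufv3* alone passed after adjustment. The intervals of the other 5, *Uqcrq*, *Cox6a2*, *Ndufaf7*, *Cox7a2l* and *Atp5pb*, held both 0 and a 2-fold change. In 16 members (20%) all PU.1-deficient pools lay above all wild-type pools, against 16.2% of all genes, and in 8 (10%) all lay below, against 18.3%.

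**Figure D1:**
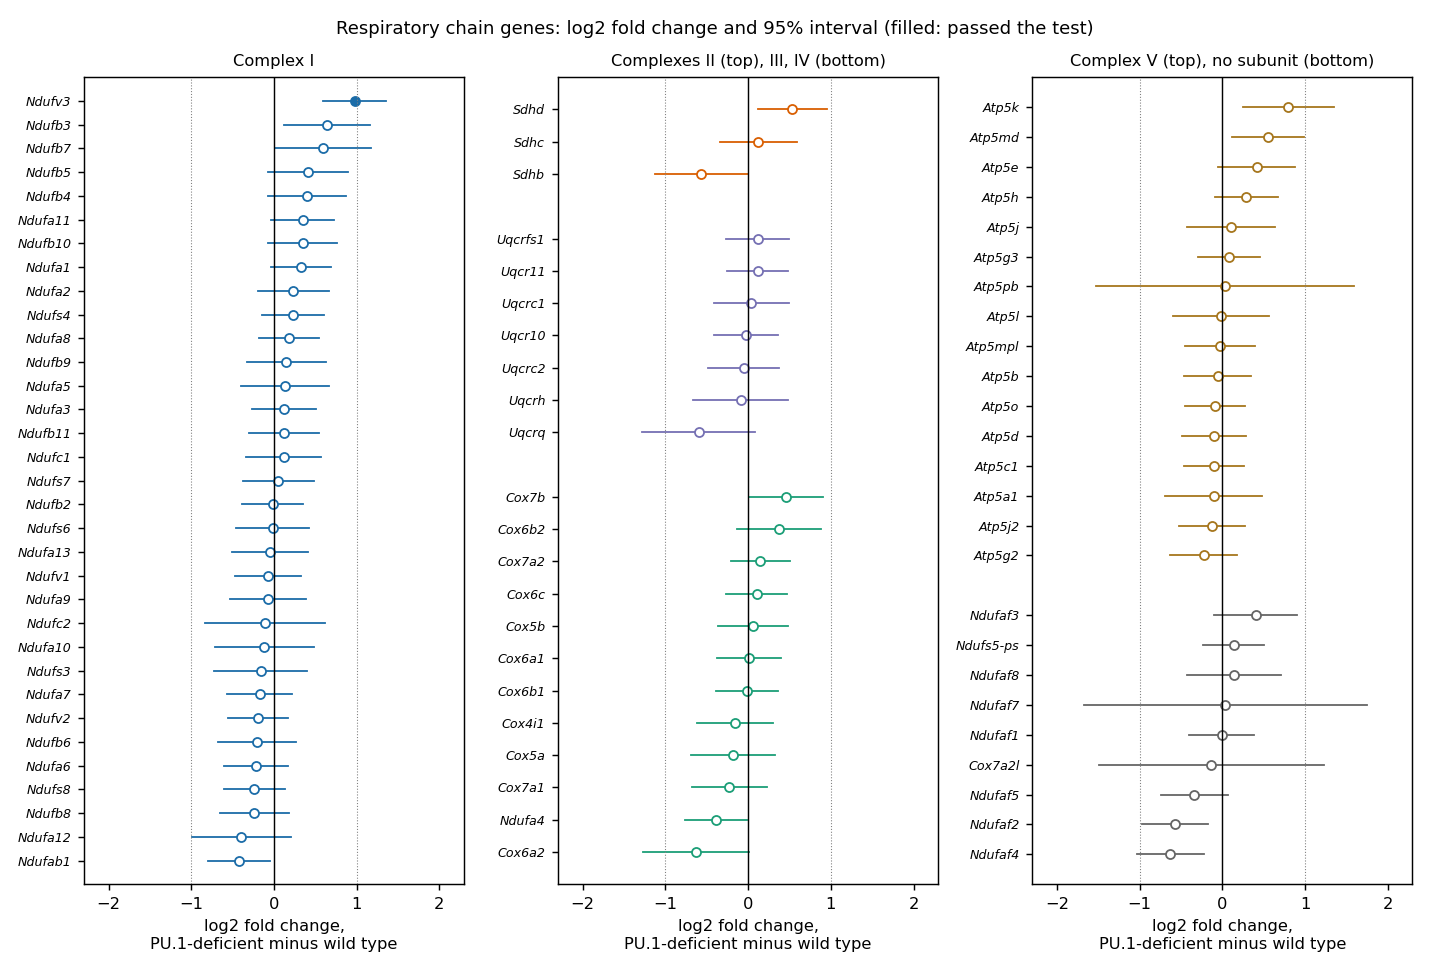
Log2 fold change (PU.1-deficient minus wild type, x axis) of each of the 80 members with its 95% confidence interval, 3 pools per genotype, grouped by complex. The filled point marks *Ndufv3* at 0.97, the only member that passed the test, and *Ndufaf7*, *Atp5pb* and *Cox7a2l* have the widest intervals.

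Complex I oxidizes NADH and is the largest of the complexes. *Ndufv3*, which codes for an accessory subunit of its NADH-binding module, had log2 intensities of 11.21, 11.23 and 11.09 in the wild-type pools and of 12.18, 12.27 and 12.00 in the PU.1-deficient pools. The groups did not overlap, and the lowest PU.1-deficient pool was well above the highest wild-type pool. The mean rose from 11.18 ± 0.08 to 12.15 ± 0.14 (SD, n = 3 pools each), which is 0.97 on the log2 scale (SE 0.165, *limma* adjusted p = 0.0110).

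A second *Ndufv3* probe also passed, with 11.18, 11.30 and 11.31 in the wild-type pools and 12.01, 12.06 and 11.82 in the PU.1-deficient pools (log2 fold change 0.70, adjusted p = 0.0398). The third probe, which was dim and detected in 5 of 6 pools, gave 0.59 and did not pass (adjusted p = 0.499), and its groups overlapped. Which transcripts each probe matches was not examined. The brightest probe no longer passed when PU.1-deficient pool 1 was left out (0.95, adjusted p = 0.0511), when wild-type pool 3 was left out (0.93, adjusted p = 0.0710), or when arrays were scaled to equal medians instead of quantile-normalized (0.86, adjusted p = 0.0968). It passed in 13 of 16 alternative settings, with adjusted p-values from 0.000835 to 0.0968 and a positive sign in all 16. The neutrophil marker genes were higher in the same 3 pools, by a median of 2.12 on the log2 scale over the list, and their part in the *Ndufv3* difference was not tested.

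*Ndufv3* lies on chromosome 17 at chr17:31520115-31531326 on the forward strand in the GRCm38.p6 annotation. Its promoter, from 250 bases before to 50 after the RefSeq start, is shown because it belongs to the only member that passed. It holds the CCAAT box, a common promoter motif, on the reverse strand, and the capitals mark both matches.
Ndufv3, chr17:31519865-31520164, forward strand: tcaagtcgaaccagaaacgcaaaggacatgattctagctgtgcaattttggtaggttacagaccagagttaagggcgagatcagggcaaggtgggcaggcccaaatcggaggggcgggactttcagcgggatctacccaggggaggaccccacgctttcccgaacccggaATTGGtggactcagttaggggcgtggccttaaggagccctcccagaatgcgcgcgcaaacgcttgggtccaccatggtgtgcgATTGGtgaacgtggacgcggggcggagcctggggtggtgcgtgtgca

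Of the 33 complex I genes, 17 had a positive and 16 a negative log2 fold change, with a median of 0.05. The core subunits carry the flavin and the iron-sulfur clusters, or shape the site where ubiquinone is reduced. Of the 5 measured, *Ndufv1*, *Ndufv2*, *Ndufs3*, *Ndufs7* and *Ndufs8*, none passed, 0 had an unadjusted p under 0.05, and the intervals of all 5 lay between -1 and 1. *Ndufv1*, which binds NADH and the flavin, had a log2 fold change of -0.08 (95% interval -0.48 to 0.33). *Ndufv2*, its iron-sulfur partner, had -0.19 (-0.55 to 0.17), and its PU.1-deficient pools, at 11.52, 11.62 and 11.58, all lay below the wild-type pools, at 11.74, 11.81 and 11.75. *Ndufs8*, which carries iron-sulfur clusters, was likewise separated, at 11.27, 11.31 and 11.34 in the wild-type pools and 11.01, 11.17 and 11.03 in the PU.1-deficient pools (log2 fold change -0.24, adjusted p = 0.468). *Ndufs7*, which holds the last cluster before ubiquinone, had a log2 fold change of 0.05 (-0.38 to 0.48). The median was -0.16 for these 5 core genes and 0.12 for the 28 accessory genes, and the difference between the medians was not tested.

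Among the accessory subunits that did not pass, *Ndufb3* and *Ndufb7* had the largest positive values, while *Ndufb6* (-0.21) and *Ndufb8* (-0.24) of the same name series were negative. The second probe of *Ndufb6* (0.08) and that of *Ndufb8* (0.12) were positive, as were most other genes of the series. *Ndufb3* was at 10.84, 10.25 and 10.51 in wild-type LSK cells and at 11.45, 10.99 and 11.06 in PU.1-deficient LSK cells, so that the groups did not overlap (log2 fold change 0.64, adjusted p = 0.148). *Ndufb7* was at 8.83, 8.23 and 8.31 against 9.38, 8.72 and 9.05, where PU.1-deficient pool 2 lay below wild-type pool 1 (0.59, adjusted p = 0.223). *Ndufa13*, also known as GRIM-19, had a log2 fold change of -0.05 (95% interval -0.50 to 0.41). At the other end was *Ndufab1*, the mitochondrial acyl carrier protein, which also serves fatty acid synthesis. Its 3 PU.1-deficient pools (11.17, 11.37 and 11.22) lay below the wild-type pools (11.68, 11.74 and 11.61), with a log2 fold change of -0.42 (adjusted p = 0.178). All 4 of its probes were negative, from -0.49 to -0.22, and none passed.

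Complex II, succinate dehydrogenase, also works in the citric acid cycle. Its 3 measured subunits did not share a direction. *Sdhb*, the iron-sulfur subunit, was at 10.43, 9.81 and 10.12 in the wild-type pools and at 9.85, 9.22 and 9.60 in the PU.1-deficient pools, with 1 PU.1-deficient pool inside the wild-type range (log2 fold change -0.56, standard error 0.242, adjusted p = 0.235). *Sdhd*, which anchors the enzyme in the membrane, was at 9.74, 9.41 and 9.33 against 10.05, 9.94 and 10.09, without overlap (0.53, standard error 0.180, adjusted p = 0.133). *Sdhc*, the other anchor, had a log2 fold change of 0.12 (95% interval -0.34 to 0.59). The second *Sdhb* probe fell into separate groups, with PU.1-deficient pools at 9.61, 9.26 and 9.46 and wild-type pools at 10.30, 9.65 and 9.70 (adjusted p = 0.328), and the third, detected in 3 of 6 pools, had a log2 fold change of -0.04 with overlapping groups. *Sdha*, which codes for the flavin-carrying subunit, was not analysed here.

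Complex III passes electrons from ubiquinol to cytochrome c. Of its 7 genes, 0 passed and 0 had an unadjusted p under 0.05, and all 7 had overlapping groups. *Uqcrc1*, a large subunit of the matrix side, had a log2 fold change of 0.04 (95% interval -0.41 to 0.49), *Uqcr10* of -0.03 (-0.42 to 0.36) and *Uqcr11* of 0.11 (-0.26 to 0.49). *Uqcrq* had the widest difference of the complex. It was at 7.54, 8.33 and 8.26 in wild-type LSK cells and at 7.38, 7.88 and 7.08 in PU.1-deficient LSK cells (-0.60, 95% interval -1.28 to 0.09). *Uqcrfs1*, the Rieske iron-sulfur protein, was detected in 1 of 6 pools, so its log2 fold change of 0.12 describes values near background.

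Complex IV, cytochrome c oxidase, had 12 measured genes, of which 6 were positive and 6 negative (median -0.003). Subunits of this complex come in forms that differ between tissues. *Cox4i1*, the widely used form of subunit 4, had a log2 fold change of -0.16 (95% interval -0.61 to 0.29). *Cox6a1*, the widely used form of subunit 6a, had 0.01 (-0.38 to 0.39). *Cox6a2*, the form of heart and skeletal muscle, was at 6.52, 7.02 and 7.26 in the wild-type pools and at 6.29, 6.71 and 5.92 in the PU.1-deficient pools (-0.63, adjusted p = 0.248). The widely used *Cox6b1* had -0.01, and *Cox6b2*, the testis form, had 0.37 (adjusted p = 0.407). *Cox7a2*, the widely used form of subunit 7a, had 0.15 and the muscle form *Cox7a1* -0.23 (adjusted p = 0.588). *Cox7b* was at 7.85, 8.04 and 8.28 against 8.38, 8.43 and 8.72, without overlap (0.46, adjusted p = 0.228). *Ndufa4*, at 13.02, 13.06 and 13.11 against 12.78, 12.55 and 12.68, was separated the other way (-0.39, adjusted p = 0.213). None of the 12 passed.

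Complex V consists of the catalytic F1 part in the matrix, a peripheral stalk, a ring of c subunits that turns with the protons, and further membrane subunits. None of the 5 F1 genes passed. *Atp5b*, the catalytic beta subunit, was at 13.75, 13.94 and 13.71 in wild-type LSK cells and at 13.65, 13.93 and 13.67 in PU.1-deficient LSK cells (log2 fold change -0.05, 95% interval -0.46 to 0.35). *Atp5a1*, the alpha subunit, had -0.10 (-0.69 to 0.48). Of the small F1 subunits, *Atp5e* had 0.42 (adjusted p = 0.289). The c ring is coded by several genes for the same mature protein, of which *Atp5g2* had -0.23 (adjusted p = 0.540) and *Atp5g3* 0.09 (adjusted p = 0.837).

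The 2 largest differences in complex V were those of small membrane subunits. *Atp5k*, subunit e, which helps ATP synthase to form dimers, was at 6.33, 5.85 and 6.34 in the wild-type pools and at 7.21, 7.11 and 6.60 in the PU.1-deficient pools. The groups did not overlap, and the log2 fold change was 0.80 (standard error 0.236, adjusted p = 0.0894). Its second probe gave 0.55 and was separated as well. *Atp5md*, which codes for a small protein bound to the synthase, was at 8.07, 8.0 and 7.90 against 8.32, 8.52 and 8.81, without overlap (0.56, adjusted p = 0.130). Neither passed.

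Among the members that are no subunits, *Ndufaf4* and *Ndufaf2* were the lowest in PU.1-deficient LSK cells, and both are named here after their values were seen. *Ndufaf4*, which acts with *Ndufaf3* early in the assembly of complex I, was at 9.93, 9.71 and 9.69 in the wild-type pools and at 9.05, 9.08 and 9.32 in the PU.1-deficient pools. The groups were separated (log2 fold change -0.63, standard error 0.173, adjusted p = 0.0712), as were those of its second probe (-0.99, adjusted p = 0.0641). *Ndufaf2*, which acts late in assembly, was at 10.12, 10.20 and 10.15 against 9.40, 9.75 and 9.61 (-0.57, standard error 0.170, adjusted p = 0.0923). Both missed the threshold. They passed it with no background correction (adjusted p = 0.0201 and 0.0222) and with an offset of 50 (0.0295 and 0.0360). They also passed with no filter on dim probes (0.0404 and 0.0458) and with array weights (0.0247 and 0.00626). Over the 16 alternative settings, *Ndufaf4* passed in 4 and *Ndufaf2* in 5, with *limma* adjusted p-values up to 0.230 and 0.289. *Ndufaf3* had a log2 fold change of 0.40 (adjusted p = 0.345), with its PU.1-deficient pools above the wild-type pools.

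**Figure D2:**
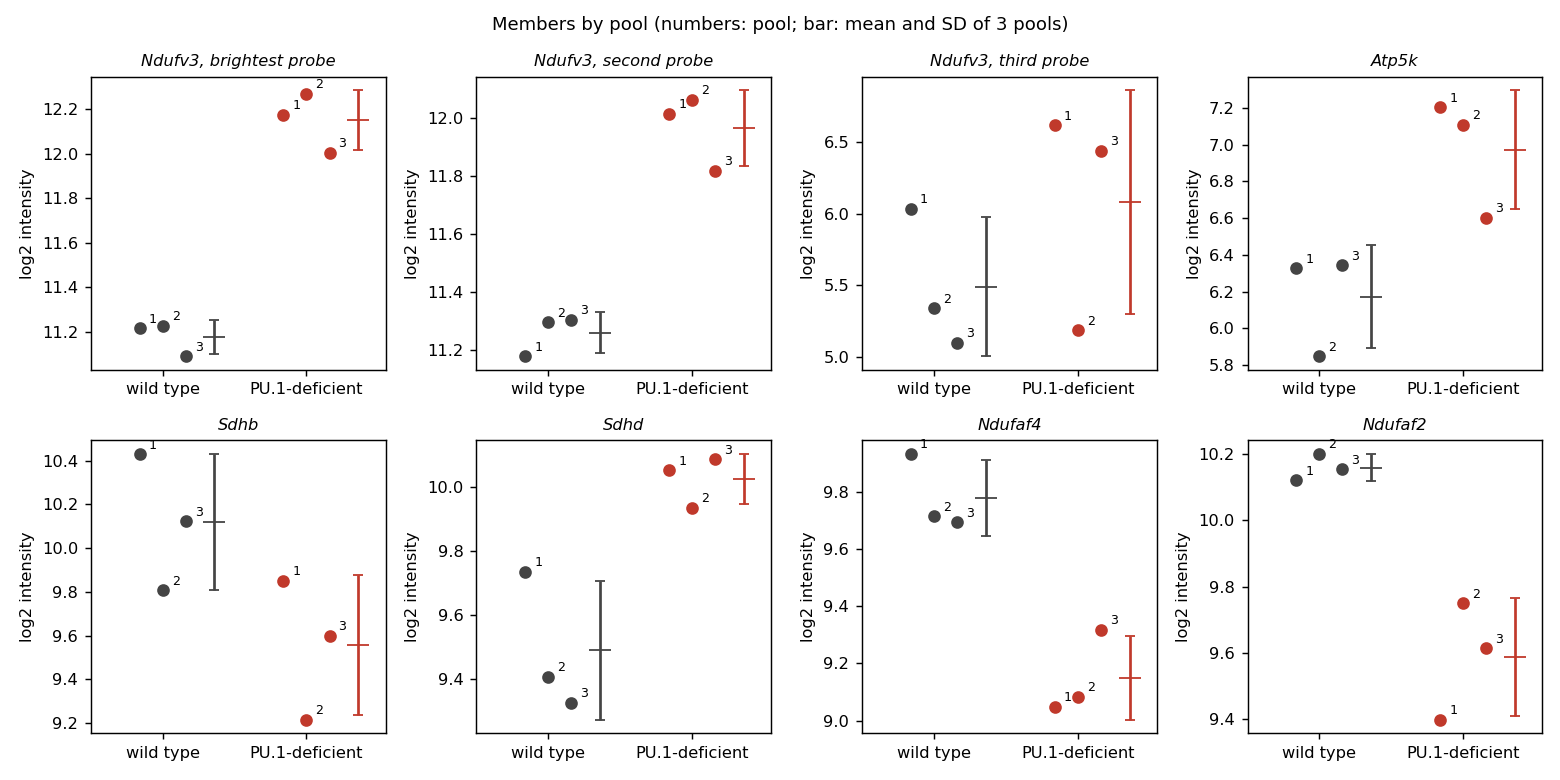
Log2 intensity (y axis, a scale of its own in each panel) of the 3 *Ndufv3* probes and of *Atp5k*, *Sdhb*, *Sdhd*, *Ndufaf4* and *Ndufaf2* in each numbered pool, with the mean and SD of 3 pools as bars. The genotypes do not overlap for the 2 brighter *Ndufv3* probes, *Atp5k*, *Sdhd*, *Ndufaf4* and *Ndufaf2*, and overlap for the dim *Ndufv3* probe and for *Sdhb*.

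Promoters of the members were examined for short motifs, on both strands, in the RefSeq windows of 300 bases (GRCm38.p6), which 69 of the 80 members had. No motif searched contains another. CATGCGC, a repeat unit of the palindromic site of NRF1, a transcription factor known for respiratory genes, was found in 15 of 69 members (21.7%), against 7.98% of the tested genes with a window and 4.41% of all genes with one. CGGAAG, a motif of the ETS family of factors, was found in 47.8%, against 35.1% and 18.8%. PU.1 belongs to this family, but the longer GAGGAAGT is the form it prefers. GAGGAAGT was found in 3 members (4.35%), against 3.77% and 3.69%. AANATGGCG, a YY1 motif, was found in 15.9%, against 5.93% and 2.76%, and CCAAT in 43.5%, against 43.3% and 41.1%. These matches are a description of the letters and do not show binding.

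Both *Ndufaf4*, with a negative value, and *Atp5k*, with a positive one, held this NRF1 motif, and the stretches around it are shown so that they can be compared. Capitals mark CATGCGC on either strand, 2 overlapping matches in each gene, and CGGAAG.
Ndufaf4, chr4:24897940-24898006, forward strand: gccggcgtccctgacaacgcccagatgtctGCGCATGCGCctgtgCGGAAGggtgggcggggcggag
Atp5k, chr5:108434413-108434479, reverse strand: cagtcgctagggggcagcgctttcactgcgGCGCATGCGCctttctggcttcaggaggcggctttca

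Other genes of the mitochondrion were examined beside the members. Of the subunits coded in mitochondrial DNA, 7 had a probe (*ND1*, *ND4*, *ND4L*, *ND5*, *ND6*, *COX2* and *ATP6*), and by *limma* 0 passed and 0 had an unadjusted p under 0.05 (median log2 fold change 0.09). *ND1* had 0.09 (95% interval -0.29 to 0.47) and *COX2* 0.05 (-0.33 to 0.42). The intervals of 4 of the 7 lay between -1 and 1, and those of the other 3 held both 0 and a 2-fold change. Of 72 mitochondrial ribosomal proteins, 0 passed, 8 had an unadjusted p under 0.05 (11.1%, against 27.1% of all genes) and the median was -0.15. Of these, 52 were negative and 20 positive. In 30.6% all PU.1-deficient pools lay below all wild-type pools, against 18.3% of all genes, and in 5.56% above, against 16.2%. Of 15 citric acid cycle enzymes, 0 passed and 0 had an unadjusted p under 0.05 (median -0.19). Among 14 genes of electron carriers and quinone synthesis 0 passed (2 at an unadjusted p under 0.05), and *Cycs*, which codes for cytochrome c, had a log2 fold change of 0.18 (adjusted p = 0.717).

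Of these mitochondrial lists, 2 others held genes that passed, all lower without PU.1. They were 3.125% of the assembly factors outside the symbol rule and 10% of the factors of mitochondrial DNA and biogenesis. Of all genes, 5.59% were lower. *Uqcc2*, an assembly factor of complex III, was the only one of 32 assembly factors outside the symbol rule that passed (log2 fold change -0.93, adjusted p = 0.0317). Of 20 factors of mitochondrial DNA and biogenesis, *Pprc1*, a coactivator of the PGC-1 family (-0.89, adjusted p = 0.0290), and *Twnk*, the mitochondrial DNA helicase (-0.72, adjusted p = 0.0491), were lower, and *Tfam* had -0.42 (adjusted p = 0.518). Of 22 import and inner membrane carrier genes 0 passed and 6 had an unadjusted p under 0.05 (27.3%, against 27.1% of all genes, median -0.14). Of these, 19 were negative and 3 positive. In 36.4% all PU.1-deficient pools lay below all wild-type pools, against 18.3% of all genes, and in 4.55% above, against 16.2%.

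Proteasome and ribosome genes, used by every cell, are given for scale. Among 36 proteasome subunits 0 passed (1 at an unadjusted p under 0.05, median log2 fold change -0.04). Among 56 cytosolic ribosomal protein genes 1 was higher (1.79%, against 6.61% of all genes) and 2 were lower (3.57%, against 5.59%), with a median of -0.17. The higher one was *Rpl3l*, the striated muscle form of Rpl3, detected in 0 of 3 wild-type pools. The lower ones were *Rpl13a* (-0.93) and *Rplp0* (-0.83). No difference between lists was tested.

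**Figure D3:**
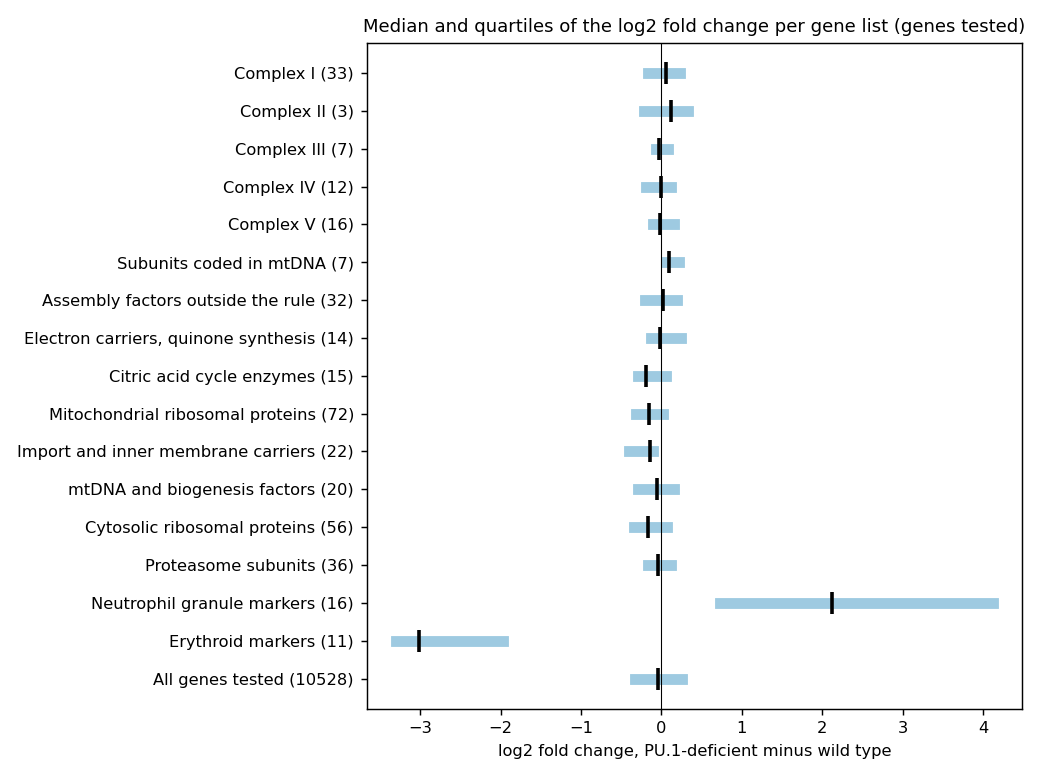
Median (black line) and quartiles (bar) of the log2 fold change, PU.1-deficient minus wild type, over the tested genes of each list, with their number in brackets. The 5 complexes have medians from -0.03 to 0.12, close to the -0.04 of all genes, while the neutrophil granule markers have 2.12 and the erythroid markers -3.02.

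Some members differed more between pools of one genotype than between genotypes. The pooled SD within genotypes was 1.20 for *Ndufaf7*, which codes for an enzyme that methylates a core subunit of complex I, 1.09 for *Atp5pb*, the b subunit of the peripheral stalk, and 0.94 for *Cox7a2l*. Of 10528 genes, these ranked 57, 89 and 136 by this SD, while the median was 0.169 over the members and 0.263 over all genes. *Cox7a2l* is known for a shortened form in C57BL/6 mice, the background of both genotypes.

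*Atp5pb* was at 11.25 in wild-type pool 1, against 9.32 and 9.56 in pools 2 and 3, and at 10.95 and 10.49 in PU.1-deficient pools 1 and 3, against 8.80 in pool 2. *Cox7a2l* was at 11.44, 9.70 and 9.87 in the wild-type pools and at 10.90, 9.16 and 10.55 in the PU.1-deficient pools. *Ndufaf7* was at 8.02, 6.18 and 5.56 and at 7.60, 5.40 and 6.87. In all 3 genes the highest pools were wild-type pool 1 and PU.1-deficient pools 1 and 3. The log2 fold changes were 0.03 for *Atp5pb* (95% interval -1.53 to 1.60), -0.13 for *Cox7a2l* (-1.49 to 1.23) and 0.04 for *Ndufaf7* (-1.67 to 1.75), so that neither a rise nor a fall of over 2-fold could be told from none.

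The probes of *Atp5pb* did not behave alike. The second probe followed the first, from 7.72 in PU.1-deficient pool 2 to 10.91 in wild-type pool 1. The third probe, detected in all 6 pools, was at 8.18, 8.16 and 8.12 in wild-type LSK cells and at 8.26, 8.44 and 8.66 in PU.1-deficient LSK cells, a range of 0.54 against 2.45 for the first. Whether these probes match the same transcripts was not examined.

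The same order of pools was present more widely. In 20 of 80 members (25%) the 3 highest pools were wild-type pool 1 and PU.1-deficient pools 1 and 3, against 9.56% of all genes, and in 13 (16.25%) these were the 3 lowest, against 19.3% of all genes. The mean intensity of the arrays followed this order in part. It was 435.003, 387.234 and 408.073 for these 3 pools. Among the remaining arrays it was lower at 262.801 (PU.1-deficient pool 2) and 299.017 (wild-type pool 3), but higher at 451.168 (wild-type pool 2). The part of array intensity in the order of pools was not tested. The first principal component of the differences within genotypes held 85.0% of the variance of the members and 71.3% of that of all tested probes. Genes were not scaled for it, so members of wide spread such as *Ndufaf7*, *Atp5pb* and *Cox7a2l* weigh most. The share of the members therefore does not show how many of them follow the order of pools. That order was noticed in these data, and its source was not tested.

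**Figure D4:**
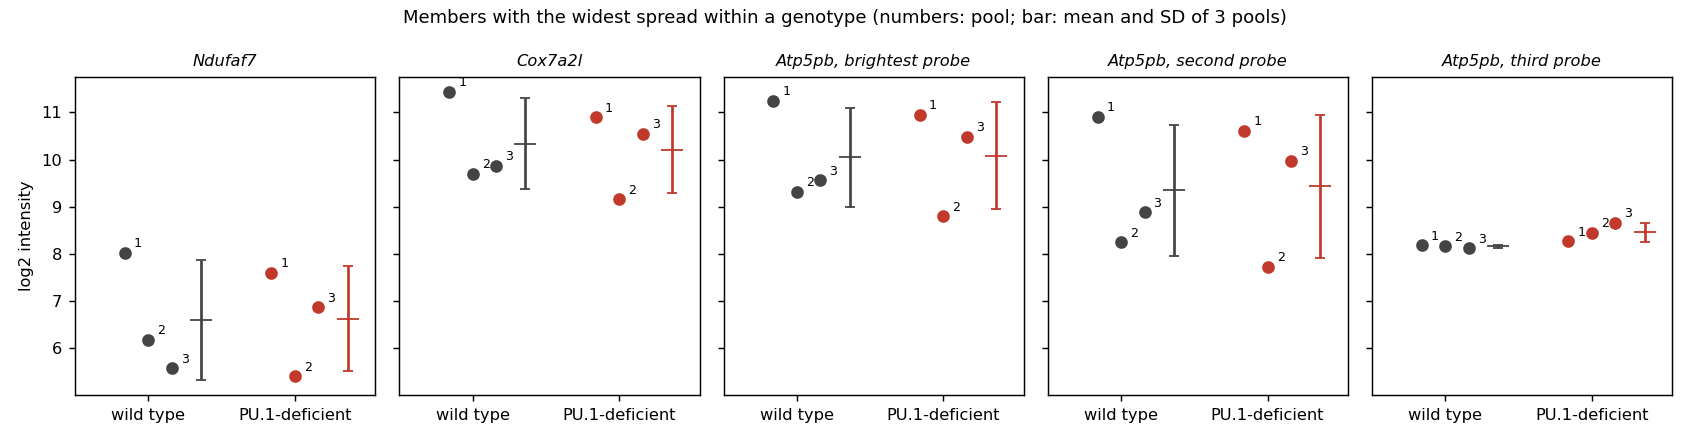
Log2 intensity (y axis, shared) of *Ndufaf7*, *Cox7a2l* and 3 *Atp5pb* probes in each numbered pool, with the mean and SD of 3 pools as bars. Wild-type pool 1 and PU.1-deficient pools 1 and 3 are the highest in the first 4 panels, and the third *Atp5pb* probe stays between 8.12 and 8.66.

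Of the members, 3 lie on chromosome X. All 4 *Xist* probes were detected in 3 of 3 PU.1-deficient pools, while in the wild-type pools the brightest was detected in 1 of 3 and the other 3 probes in 0 of 3. *Ndufa1* did not pass and was at 12.09, 12.05 and 11.94 in the wild-type pools and at 12.38, 12.32 and 12.37 in the PU.1-deficient pools (log2 fold change 0.33, adjusted p = 0.283). *Ndufb11* had 0.12 (95% interval -0.31 to 0.54), and *Cox7b*, given above, had 0.46.

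Of the 28 members with several tested probes, 19 had log2 fold changes of 1 sign over all their probes and 9 had both signs. None of the 9 had a probe that passed. *Cox6b2* had the widest disagreement around zero among the isoforms, from -0.10 to 0.37.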

How the data were processed

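RNA of 6 pools of sorted LSK cells was amplified, labeled and hybridized to Illumina mouse whole-genome bead arrays, 1 per pool. The authors deposited intensities that are neither background-corrected nor normalized, each with a detection p-value; the headings of these column pairs are exchanged, and the columns were told apart by their values. The authors also deposited log2 values that, after the methods, came from neqc, a *limma* function that corrects the background and applies quantile normalization. Groups came from the genotype labels, and a p-value measures the spread between pools.

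Intensities were normalized again with neqc (*limma* 3.58.1, R 4.3.3), with the background inferred from the detection p-values and an offset of 16. Over the 19750 probes in both tables, these values lay within 0.0256 of the deposited log2 values. The 22119 probes detected at p under 0.05 in 1 array or more were tested with lmFit and eBayes, with Benjamini-Hochberg adjustment over all of them. Platform annotation gave 1 gene symbol for 16548 probes, several for 9, and none used here for the rest, with symbols updated through RefSeq gene identifiers where they differed. A gene was represented by its brightest probe over the 6 pools in the deposited log2 values. The fits were tested on simulated data with independent noise for each probe. Those data lacked the order of pools shared by many genes, so they do not show how the fits behave with it.

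The members and lists were chosen with earlier results of these data known. The text names each member past the threshold, the 3 largest differences and the brightest member of each complex, the cofactor-carrying subunits, the tissue isoforms and members whose probes gave different calls. *Ndufaf2*, *Ndufaf4*, *Ndufaf7*, *Cox7a2l*, *Atp5pb*, *Ndufab1*, *Ndufa1* and *Ndufb11* were added after their values were seen. *Ndufb6*, *Ndufb8* and *Ndufaf3*, given with values, fall outside these criteria as well. Alternatives covered background correction, offset, normalization, filters, pairing, array weights, single pools left out, probes and choice of members. Lists were described by counts and medians, without set tests. Promoter sequences are those of RefSeq, and were searched by text matching.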

Additional observations from a re-analysis of the deposited data

How the results depend on the processing

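*Ndufv3* kept a positive log2 fold change in all 16 alternative settings and passed in 13. With no background correction, 3 members were higher and 4 lower, 3 of them in complex I, 1 in complex II and 1 in complex IV. These were 3.75% and 5% of the members, against 5.47% and 4.86% of all probes. An offset of 50 gave 2 lower members, as did no filter on dim probes, and the mean over the probes of a gene gave 1, with medians of 0.0350 for all members and 0.0305 for complex V. The lower members were 2.5%, 2.5% and 1.25%, against 4.52%, 1.87% and 4.74% of all probes or genes tested in these settings. Scaling to equal medians moved the median of all probes to -0.21 and gave 0 higher members, 0 of them in complex I, with medians of -0.11 for all members, -0.10 for complex I, -0.0855 for complex II, -0.12 for complex IV and -0.10 for complex V. Of all probes, 526 were then higher and 893 lower, against 1081 and 864. Array weights gave 12 higher and 8 lower members, 9 of them in complex I, 1 in complex II, 1 in complex III, 4 in complex IV and 2 in complex V, with medians of 0.11 for all members, 0.13, -0.0652, 0.10, 0.11 and 0.14 for complexes I to V. The weights also raised the counts over all probes to 3189 and 4120, or 14.4% and 18.6%, against 15% and 10% of the members.

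Leaving out single pools gave 0 to 1 higher members, 0 to 1 of them in complex I, and medians of -0.0117 to 0.0623 for all members, 0.0140 to 0.0748 for complex I, -0.0479 to 0.223 for complex II, -0.0892 to 0.0577 for complex III, -0.0308 to 0.0288 for complex IV and -0.0698 to 0.0979 for complex V. The counts over all probes were then 603 to 1005 higher and 306 to 1112 lower. The sign of the median turned without 1 pool for complexes II, III, IV and V, and for complex I with scaling to equal medians. With pool 1 of the wild type and pool 2 of the PU.1-deficient LSK cells left out together, 8 members were higher and 3 lower (median 0.10), which is 10% and 3.75% of the members against 13.5% and 13.7% of all probes tested, and *Cox7a2l* turned from -0.13 to 0.93 (adjusted p = 0.0173). That setting was chosen after seeing the data, and it takes out the highest wild-type and the lowest PU.1-deficient pool of that gene, which raises the difference by construction.

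Pool numbers are shared between the genotypes, but the deviations of same-numbered pools correlated at 0.72, 0.61 and -0.15 over all probes for pools 1, 2 and 3, so the numbers were not taken as pairs. With the number as a replicate block, 3 members were higher (*Ndufv3*, *Ndufb3* and *Atp5k*), 2 in complex I and 1 in complex V, and 1596 probes were higher and 1681 lower. That is 3.75% higher and 0% lower among the members, against 7.22% and 7.60% of all probes. With 3 pools per genotype, the intervals of 5 members held both 0 and a 2-fold change, and dim probes such as that of *Uqcrfs1* understate differences.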
